A study of Mus musculus with 8 samples.

Results

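The simple epithelial keratins Krt7, Krt8, Krt18, Krt19, Krt20 and Krt23 were described in organoids of the mouse colon, which are epithelial cultures grown in a gel from crypts. The 6 genes were taken by symbol from the 45777 genes of the deposited count table, and all 6 passed the filter on low counts that left 14945 genes for testing. The organoids came from male mice aged 9 weeks of a C57BL/6J background per the labels. In the Reg3aΔIEC organoids (KO, 4 libraries, replicates 5 to 8), loxP-flanked exons 2 to 4 of Reg3a had been removed by Cre under the Villin promoter, which acts in intestinal epithelium. The Reg3afl/fl organoids (WT, 4 libraries, replicates 13 to 16) carried the floxed alleles and were not described as carrying Cre. All organoids were collected 3 days after passage with no added treatment, so the comparison asks how keratin RNA differed with the Reg3a genotype in unstimulated epithelium. The labels give 1 mouse per genotype in 4 wells in one sentence and 3 mice per genotype in triplicate in another. All p-values given here rest on the spread among these libraries, which may be technical, and genotype, mouse and organoid line cannot be told apart.

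Keratins are the intermediate filament proteins of epithelial cells. A filament is built from pairs of 1 type I and 1 type II chain, and in simple epithelia such as the colon Krt8 is the main type II partner of the type I keratins Krt18, Krt19 and Krt20. Krt20 is known as the keratin of the differentiated cells near the intestinal surface, whereas Krt8, Krt18 and Krt19 are found along the whole crypt. Mice without Krt8 are known for colonic hyperplasia and inflammation.

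The libraries held 37182098 to 49256171 counts. Reg3a, the targeted gene, had 0 counts in all 8 libraries, so it could not be used to check the genotype labels. CPM are counts scaled to library size by TMM and set to a common total. In a library with 0 counts, up to 3 counts cannot be told from none. That is 0.0609 to 0.0807 CPM by library totals alone, without TMM, and covers counting error only. If both mates of a read pair were counted, the limit is higher. Epcam, a marker of epithelium, stood at 2013 ± 51.5 CPM in KO libraries and 2090 ± 31.1 CPM in WT libraries (SD, n = 4 each). Fibroblast markers summed to 0.0422 to 0.371 CPM in KO libraries and 0.141 to 0.234 CPM in WT libraries, with Col1a2 and Dcn at 0 in every library. Endothelial markers summed to at most 1.03 CPM in KO libraries and 0.0480 CPM in WT libraries, with none at 0 in every library. Among KO libraries only replicate 6 held endothelial counts, 30 of Cdh5 and 20 of Pecam1. The 4 leukocyte markers summed to 27.96 to 33.5 CPM in KO libraries and 30.4 to 42.8 CPM in WT libraries, nearly all of it Cd68, a lysosomal gene used as a macrophage marker. Ptprc, the pan-leukocyte marker, averaged 0.0853 CPM in KO libraries and 0.0681 CPM in WT libraries, and the T cell marker Cd3e was at 0 throughout. Cd68 stood at 31.0 ± 2.47 CPM in KO libraries and 38.4 ± 5.56 CPM in WT libraries (edgeR adjusted p = 0.0399), which overlapped, and the call ended without any library other than KO replicate 6 and WT replicate 15 (edgeR adjusted p up to 0.128). Transcripts of the mitochondrial genome made up 1.41% to 1.74% of counts in KO and 0.997% to 1.23% in WT.

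The genes lie in both keratin clusters of the mouse genome (build GRCm38, RefSeq annotation). Krt20 (NCBI Gene ID 66809) spans chr11:99428385-99438153, and Krt23 (94179) follows 39.8 kb away at chr11:99477973-99493120. Krt19 (16669) lies on the same chromosome at chr11:100140810-100145926. The type II genes Krt7 (110310) and Krt8 (16691) span chr15:101412403-101427806 and chr15:101996711-102004342. Krt18 (16668) is a type I gene that sits beside Krt8 in the type II cluster, at chr15:102028216-102032026, with 23.9 kb between them. All are protein-coding genes.

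The RefSeq promoter table (GRCm38.p6) holds 5 of the 6 genes. The 250 bases before the annotated start are shown for the 3 keratins with an edgeR adjusted p under 0.05. The neighbours Krt20 and Krt23, which moved in opposite directions, can so be set beside Krt7, whose call was less stable. Capitals mark matches on either strand to any of 5 motifs, and no matches overlapped. The TATA box was searched as TATAAA. The motif of CDX factors, the caudal homeobox family, was searched as TTTATG. The HNF4 motif was searched as CAAAGTCCA. The GC box, bound by SP and KLF factors, was searched as GGGCGG. The AP-1 motif was searched as TGAGTCA. The windows are chr11:99438154-99438403 (minus strand), chr11:99493121-99493370 (minus strand) and chr15:101412153-101412402 (plus strand), in the order printed.
Krt20: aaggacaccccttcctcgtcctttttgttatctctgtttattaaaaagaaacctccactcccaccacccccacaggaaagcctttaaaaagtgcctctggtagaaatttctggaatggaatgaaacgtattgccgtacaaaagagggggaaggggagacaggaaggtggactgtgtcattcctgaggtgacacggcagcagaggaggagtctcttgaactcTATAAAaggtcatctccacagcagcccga
Krt23: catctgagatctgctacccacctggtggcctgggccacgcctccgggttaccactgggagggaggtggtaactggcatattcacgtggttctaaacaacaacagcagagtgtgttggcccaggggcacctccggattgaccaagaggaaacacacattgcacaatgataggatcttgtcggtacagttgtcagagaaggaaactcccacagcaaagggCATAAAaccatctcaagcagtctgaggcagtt
Krt7: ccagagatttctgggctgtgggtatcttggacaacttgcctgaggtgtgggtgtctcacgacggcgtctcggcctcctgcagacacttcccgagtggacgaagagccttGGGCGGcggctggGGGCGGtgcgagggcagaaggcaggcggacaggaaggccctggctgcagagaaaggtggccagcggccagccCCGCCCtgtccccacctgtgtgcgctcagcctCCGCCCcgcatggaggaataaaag
The Krt20 window held the letters TATAAA, beginning 29 bases before the start, a match found in 12.4% of all 32851 promoter windows. The Krt23 window held TTTATG on the opposite strand, beginning 32 bases before the start, as did 10.8% of windows. The Krt7 window held GGGCGG at 4 places (32.7% of windows held at least 1) and had the highest GC content of the 5, at 66.0%, against 48.0% for Krt20. The windows of Krt8 and Krt18 held none of these letters. HNF4 and AP-1 matches, present in 0.384% and 4.46% of all windows, were in none of the 5. A match is a description of letters and not evidence of binding.

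The keratins did not move together between the genotypes. Krt20 rose 1.69-fold in KO, Krt23 and Krt7 fell to 0.802 and 0.908 of their WT level, and Krt8, Krt18 and Krt19 did not pass the test. The Krt7 call was lost in 6 of 8 runs without 1 library, and the fold of Krt18, 0.926, was close to that of Krt7. Of the 6, 1 was higher and 2 were lower (quasi-likelihood test of edgeR, adjusted p under 0.05 by Benjamini-Hochberg over all genes tested), while 7.63% of all tested genes were higher and 8.26% lower, 15.9% in either direction. The median log2 fold change of the 6 was -0.028, against -0.0012 over all tested genes. In these bulk libraries, fewer cells of a type and less RNA per cell cannot be told apart.

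Krt20, the surface keratin, stood at 64.3, 72.5, 76.0 and 69.9 CPM in the KO libraries, replicates 5 to 8, against 39.1, 43.5, 44.8 and 39.5 CPM in the WT libraries, replicates 13 to 16. Every KO library was above every WT library, and KO replicate 5 was the lowest of its group. The fitted log2 fold change was 0.76 with an SE of 0.06 (edgeR adjusted p = 6.3e-06), a 1.69-fold difference with a range of 1.56 to 1.84 at 1.96 SE on either side. Leaving out any single library gave log2 fold changes of 0.72 to 0.80. The libraries within a genotype varied little, with a coefficient of variation of 6.98% in KO and 6.82% in WT.

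Krt23, a type I keratin that in human cells was described as induced by histone deacetylase inhibitors, was the scarcest of the 6. It stood at 8.61, 7.90, 8.00 and 6.91 CPM in the KO libraries and at 9.45, 9.61, 9.77 and 10.4 CPM in the WT libraries. All KO libraries were below all WT libraries, KO replicate 8 the lowest. Its fitted log2 fold change was -0.32 with an SE of 0.08 (edgeR adjusted p = 0.0174), and the call ended without KO replicate 8 (edgeR adjusted p = 0.0627). Krt20 and Krt23 were the 2 keratins whose libraries did not overlap between genotypes, which held for 20.2% of all tested genes.

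**Figure D1:**
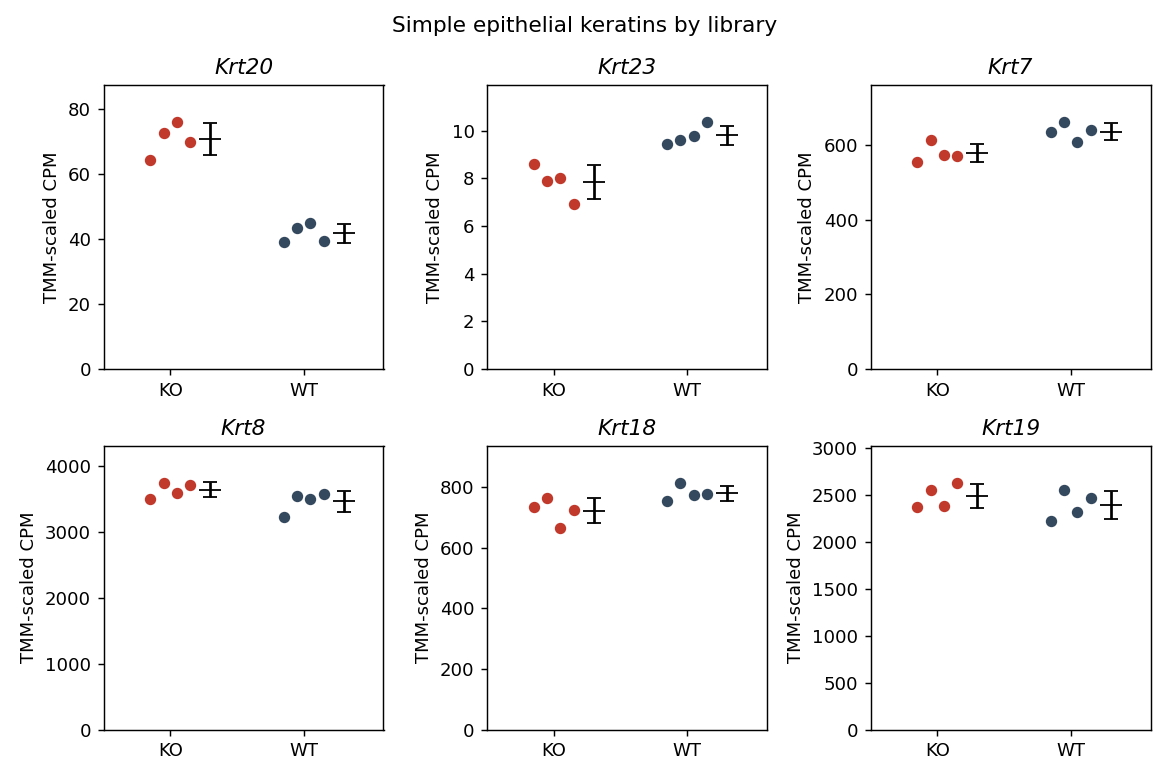
TMM-scaled CPM of the 6 keratins, 1 panel per gene with its own axis from 0; red points are the 4 KO libraries, dark points the 4 WT libraries, and black bars the mean and SD. Krt20 lies between 64.3 and 76.0 CPM in KO libraries and between 39.1 and 44.8 CPM in WT, Krt23 is lower in every KO library, and the other 4 genes overlap.

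Krt7, a type II keratin best known from ductal and bladder epithelia, stood at 555, 612, 572 and 569 CPM in the KO libraries and at 634, 661, 607 and 639 CPM in the WT libraries. The groups touched, since KO replicate 6 was above WT replicate 15. The fitted log2 fold change was -0.14 with an SE of 0.04 (edgeR adjusted p = 0.0356), or 0.908-fold. This small difference did not hold under all settings: with any of KO replicates 5, 7 and 8 or WT replicates 13, 14 and 16 left out, the edgeR adjusted p lay between 0.0622 and 0.124. It was 0.0541 with upper-quartile scaling and 0.0619 with no low-count filter.

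The 3 keratins of the whole crypt overlapped between the genotypes. Krt8, the main type II chain, stood at 3497, 3744, 3594 and 3708 CPM in the KO libraries and at 3227, 3538, 3504 and 3580 CPM in the WT libraries. WT replicate 13 was the lowest of the 8, and the fitted log2 fold change was 0.07 with an SE of 0.04 (edgeR adjusted p = 0.258), a fold of 1.05 with a range of 0.996 to 1.11 at 1.96 SE. Krt19, a type I keratin that lacks most of the tail domain, stood at 2375, 2560, 2380 and 2632 CPM in KO libraries and at 2225, 2558, 2324 and 2468 CPM in WT. It too was lowest in WT replicate 13, with a fold of 1.04 (range 0.973 to 1.11, edgeR adjusted p = 0.510).

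Krt18, the classical type I partner of Krt8, stood at 735, 766, 665 and 726 CPM in the KO libraries, against 755, 815, 774 and 778 CPM in the WT libraries. KO replicate 7, which had the highest Krt20, had the lowest Krt18. The fitted log2 fold change was -0.11 with an SE of 0.04 (edgeR adjusted p = 0.116), a fold of 0.926 with a range of 0.871 to 0.984, and the unadjusted p was 0.0270. The intervals of Krt8, Krt18 and Krt19 leave out a change as large as that of Krt20. The pseudogene Krt8-ps, a near copy of Krt8, held 0.937 to 1.16 counts per 100 Krt8 counts in KO and 0.650 to 1.21 in WT. How reads were split between the copies was not given in the sources used here.

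Krt20 was then set against each of the other keratins within the same library, a ratio of counts that needs no scaling for depth. There were 1.84, 1.94, 2.12 and 1.88 Krt20 counts per 100 Krt8 counts in the KO libraries and 1.21, 1.23, 1.28 and 1.10 in the WT libraries. KO replicate 7 had the highest ratio and WT replicate 16 the lowest. The log2 ratio was higher in KO by 0.69 for Krt8, by 0.70 for Krt19 and by 0.87 for Krt18, the pan-epithelial keratins. It was higher by 0.90 for Krt7 and by 1.08 for Krt23. In all 5 ratios the 4 KO libraries lay above the 4 WT libraries, and each had a p = 0.0286 in a two-sided exact permutation test, the lowest value 4 libraries against 4 can give, also after Benjamini-Hochberg adjustment over the 5. The ratios share the Krt20 counts, so they are not 5 independent results. Krt20 alone already separated the genotypes and the other keratins differed less. The ratio tests therefore restate the Krt20 difference and add no separate evidence. Without any 1 library the differences lay between 0.65 and 1.17, where the smallest possible p is 0.0571.

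**Figure D2:**
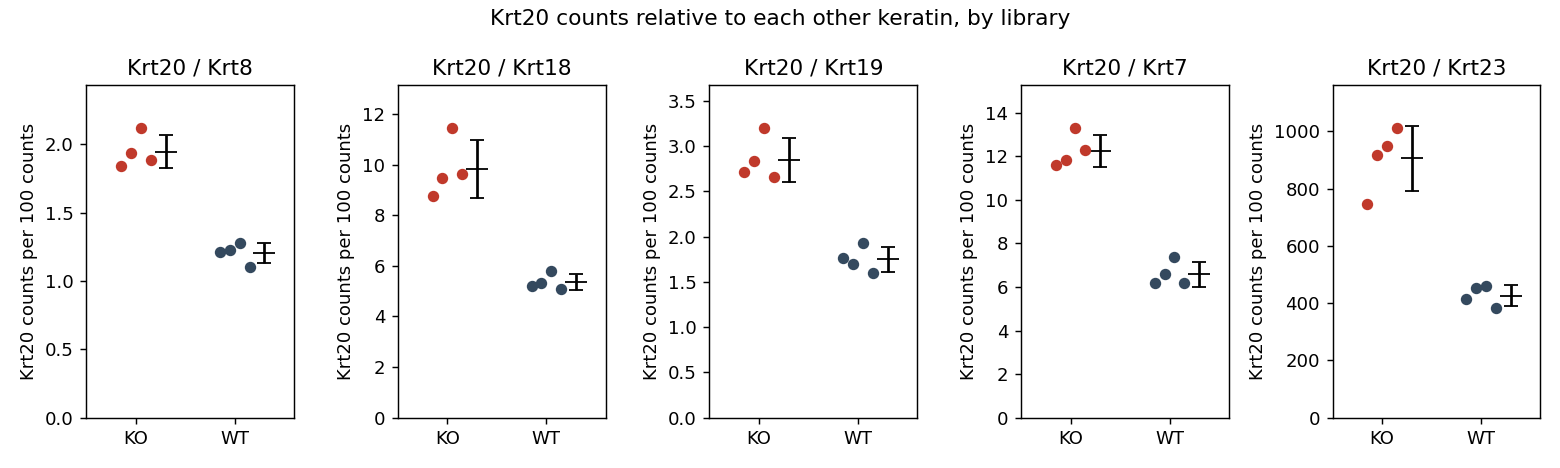
Krt20 counts per 100 counts of each other keratin in the same library, 1 panel per ratio with its own axis from 0; red points are the 4 KO libraries, dark points the 4 WT libraries, black bars the mean and SD. All 4 KO libraries lie above all 4 WT libraries in each panel, for Krt8 at 1.84 to 2.12 against 1.10 to 1.28.

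Levels of different genes were compared in TPM, which the authors scaled for transcript length. Krt8 was the most abundant, at 4029 ± 118 TPM in KO and 3751 ± 177 TPM in WT (SD, n = 4), which by its mean over all 8 libraries placed it 15th of the 14945 tested genes. Krt19 followed at 3600 ± 186 TPM in KO and 3387 ± 181 TPM in WT. The ranges of these 2 keratins overlapped in WT, although Krt8 was above Krt19 within each library. Krt18 stood at 1032 ± 49.99 TPM in KO and 1090 ± 31.3 TPM in WT, and Krt7 at 728 ± 24.5 TPM in KO and 783 ± 16.0 TPM in WT. Krt20 came far below, at 72.6 ± 5.30 TPM in KO and 41.9 ± 3.32 TPM in WT, and Krt23 was last, at 10.1 ± 0.883 TPM in KO and 12.4 ± 0.504 TPM in WT. Apart from Krt8 and Krt19 in WT, no neighbours in this order overlapped within a genotype.

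Among these 6 genes, the summed TPM of the type II and type I chains was close to equal. Other keratins were left out of the sums, among them the type II gene Krt4, at a mean of 92.7 TPM in KO and 85.9 TPM in WT. The ratio of Krt7 and Krt8 to Krt18, Krt19, Krt20 and Krt23 was 1.01 ± 0.0290 in KO, with libraries from 0.980 to 1.05, and 1.00 ± 0.0257 in WT, with libraries from 0.965 to 1.03 (SD, n = 4). The 6 keratins together reached 9124 to 9838 TPM in KO and 8527 to 9342 TPM in WT, which overlapped. Krt20 made up 1.54% ± 0.137 of the type I sum in KO and 0.925% ± 0.0667 in WT, with no overlap between the libraries. Krt20, with the largest fold change among the 6, was a minor part of the keratin RNA in both genotypes. Krt18 made up 10.3% to 11.5% of the 6 in KO and 11.7% to 12.4% in WT, and Krt7 made up 7.36% to 7.87% in KO and 8.34% to 9.16% in WT.

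The profile of Krt20 across the 8 libraries, as log2 CPM around its own mean, was farther from every other keratin than these were from each other. Its root mean square difference was 0.35 from Krt8, 0.37 from Krt19, 0.45 from Krt18, 0.46 from Krt7 and 0.56 from Krt23. Krt8 and Krt19 were nearest to each other, at 0.041, followed by Krt18 and Krt7, at 0.056. The 5 genes nearest to Krt20 among 10528 with a mean of at least 5 CPM were Alpi, Mthfs, Btn1a1, Pik3c3 and Prkg2, at 0.067 to 0.11. Alpi, which encodes intestinal alkaline phosphatase, a brush border enzyme, stood at 12.5 ± 0.612 CPM in KO libraries and 7.60 ± 0.349 CPM in WT libraries (SD, n = 4). Prkg2, a cGMP-dependent protein kinase gene, stood at 33.5 ± 1.14 CPM in KO libraries and 20.4 ± 2.57 CPM in WT libraries. Since these genes were picked for their likeness to Krt20, the likeness is given with no test.

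Of the 48 other keratin genes in the table, most of them keratins of stratified epithelium, hair or nail, 18 had 0 counts in every library and 20 were tested. Among those tested, 2 were higher and 1 lower in KO, at a median log2 fold change of 0.07. That is 15%, near the 15.9% of all tested genes. Krt84, a type II hair keratin gene, stood at 11.9 ± 1.09 CPM in KO libraries and 8.20 ± 1.72 CPM in WT libraries (SD, n = 4). Its fitted log2 fold change, with the SE, was 0.54 ± 0.13 (edgeR adjusted p = 0.0101). Krt36, a type I hair keratin gene, stood at 3.71 ± 0.427 CPM in KO libraries and 2.50 ± 0.448 CPM in WT libraries (log2 fold change 0.57 ± 0.15 SE at an edgeR adjusted p = 0.0162), a call that ended without KO replicate 7 or 8 (edgeR adjusted p up to 0.0604). Krt80, a type II keratin gene, was lower, at 3.67 ± 0.237 CPM in KO libraries and 5.05 ± 0.535 CPM in WT libraries (log2 fold change -0.46 ± 0.11 SE at an edgeR adjusted p = 0.0101). Krt4, a type II keratin of stratified mucosa, was the most abundant of the others, at 98.9 ± 2.55 CPM in KO libraries and 93.7 ± 2.46 CPM in WT libraries (edgeR adjusted p = 0.238).

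Other keratins of the basal and stratified layers were far below Krt4. Krt13 stood at 9.86 ± 1.41 CPM in KO libraries and 11.7 ± 0.707 CPM in WT libraries, and Krt14 at 5.98 ± 1.25 CPM in KO libraries and 6.90 ± 0.363 CPM in WT libraries (SD, n = 4). Neither passed the test, and both had an edgeR adjusted p under 0.05 when KO replicate 7 was left out (0.0215 and 0.0337). Krt5, the usual partner of Krt14, stood at 0.226 CPM in KO libraries and 0.276 CPM in WT libraries. Trp63, a transcription factor of stratified epithelium, averaged 0.0158 CPM in KO libraries and 0.0319 CPM in WT libraries. These Trp63 means lie below what a count of 0 allows in a library, but WT replicate 15 held 6 counts and KO replicate 7 held 3. The other tested keratins, Krt1, Krt10, Krt15, Krt16, Krt27, Krt34, Krt39, Krt6a, Krt78, Krt79, Krt83, Krt87 and Krt90, averaged at most 2.35 CPM in either genotype and did not pass the test.

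**Figure D3:**
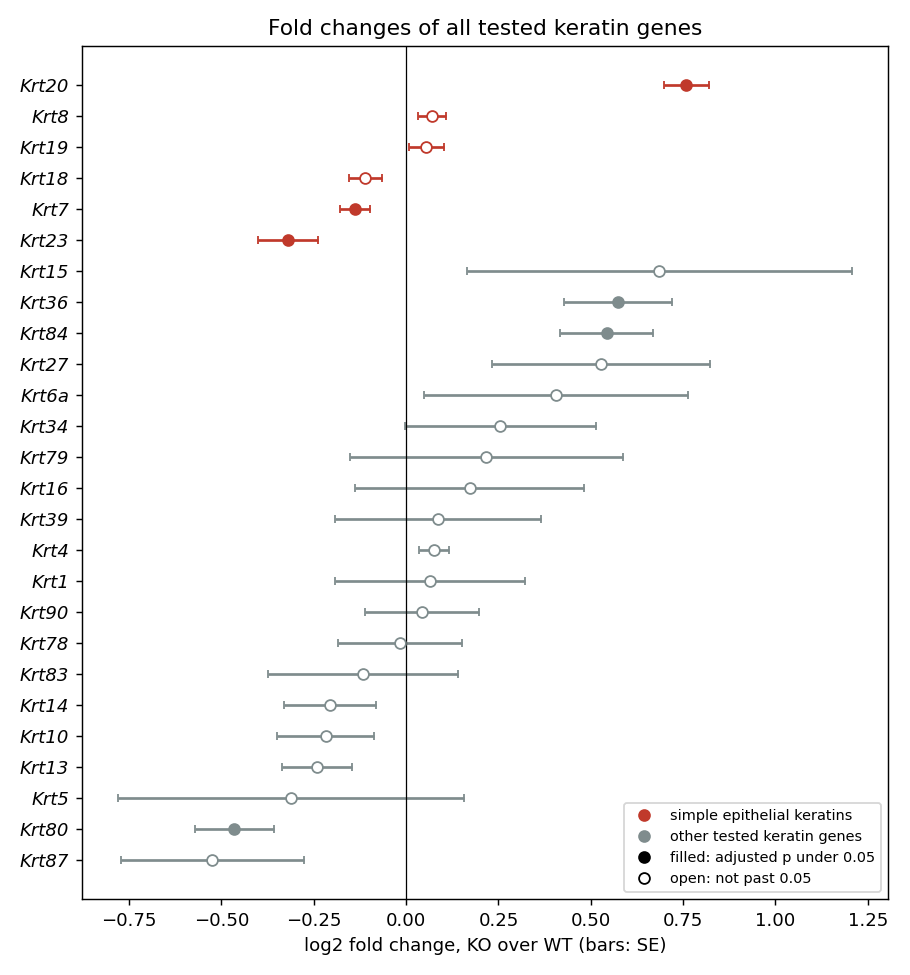
Log2 fold changes, KO over WT, of the 6 simple epithelial keratins (red) and the 20 other tested keratin genes (grey), with SE bars; filled points have an adjusted p under 0.05. Krt20 stands alone at the right among the 6, at 0.76, and Krt84, Krt36 and Krt80 are the other keratins past the threshold.

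Of 14 tested genes of the desmosome, the hemidesmosome and the plakin linkers, which anchor keratin filaments, 4 rose and 1 fell, at a median log2 fold change of 0.07. That is 35.7%, against 15.9% of all tested genes. The desmosomal cadherin gene Dsc2 rose to 352 ± 14.2 CPM in KO, against 301 ± 14.9 CPM in WT (SD, n = 4; edgeR adjusted p = 0.00381). The hemidesmosomal integrin gene Itgb4 rose to 384 ± 12.1 CPM in KO, against 323 ± 28.7 CPM in WT (edgeR adjusted p = 0.00881), and Perp, a desmosome-associated membrane protein gene, to 382 ± 2.64 CPM in KO, against 347 ± 5.87 CPM in WT. Pkp1, the plakophilin 1 gene, fell to 151 ± 1.85 CPM in KO, against 177 ± 8.60 CPM in WT (edgeR adjusted p = 0.00212). Of 6 tested genes of other intermediate filaments 1 fell, or 16.7%, near the 15.9% of all tested genes. It was the nuclear lamin gene Lmnb1, at 66.6 ± 2.01 CPM in KO libraries and 76.9 ± 5.22 CPM in WT libraries (edgeR adjusted p = 0.0161). The Lmnb1 call ended without any of KO replicates 5, 7 and 8 (edgeR adjusted p up to 0.0605). Vim, the mesenchymal filament gene, stood at 0.279 CPM in KO libraries and 0.231 CPM in WT libraries.

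Among 12 tested transcription factor genes of epithelial differentiation, 2 rose and 1 fell, at a median log2 fold change of 0.07. That is 25%, against 15.9% of all tested genes, and 1 of the calls, Hes1, was lost without some single libraries. Cdx2, the caudal homeobox factor of intestinal identity, rose to 182 ± 1.76 CPM in KO, against 144 ± 8.06 CPM in WT (SD, n = 4). Its fitted log2 fold change, with the SE, was 0.33 ± 0.04 (edgeR adjusted p = 2.4e-04). Hes1, a Notch target, stood at 97.1 ± 4.23 CPM in KO libraries and 87.6 ± 2.55 CPM in WT libraries (edgeR adjusted p = 0.0378), and that call ended without any of KO replicates 5, 6 and 8 and WT replicates 13 and 15 (edgeR adjusted p up to 0.124). Elf3, an epithelial ETS factor gene, fell to 654 ± 42.0 CPM in KO, against 775 ± 52.4 CPM in WT (edgeR adjusted p = 0.00818).

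Of 15 tested surface colonocyte markers 10 rose and 1 fell, at a median log2 fold change of 0.37. The called share was 73.3%, against 15.9% of all tested genes. This list and the other gene lists were chosen with earlier results of these data known. Their shares describe the lists and give no independent support. Their summed level was 7917 to 8197 CPM in KO libraries and 5896 to 6492 CPM in WT libraries. Krt20, at 0.76, lay between Lypd8 (0.43), the secreted inhibitor of bacterial motility, or Guca2a (0.71), the guanylin gene, and Car1 (0.96) or the chloride exchanger gene Slc26a3 (0.98). Of all 15 markers, only Car1 and Slc26a3 had a higher log2 fold change than Krt20. The marker that fell was the water channel gene Aqp8, named after its values were seen, at 9.37 ± 2.09 CPM in KO libraries and 22.8 ± 14.0 CPM in WT libraries (edgeR adjusted p = 0.0314). Its libraries overlapped, since WT replicate 16, at 6.59 CPM, was below every KO library. Of 11 tested crypt stem and proliferation markers 8 fell and none rose, or 72.7% against 15.9% of all tested genes. Their median was -0.32 and their sum 1338 to 1396 CPM in KO libraries and 1491 to 1675 CPM in WT libraries. Those that fell included Lgr5 (-0.49), the stem cell marker, Ephb3 (-0.43), Top2a (-0.40) and Mcm2 (-0.32). Of the 5 pan-epithelial markers Cdh17 rose (0.15) and Cldn3 fell (-0.21), or 40% against 15.9% of all tested genes. The summed level of the 5, 4633 to 4889 CPM in KO, overlapped that of 4867 to 4950 CPM in WT. The Cdh17 call ended without KO replicate 5 or 8 (edgeR adjusted p up to 0.0639), and the Cldn3 call ended without any library other than KO replicate 6 and WT replicate 15 (edgeR adjusted p up to 0.112).

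Some markers of secretory cells were lower in KO. Of 7 goblet cell markers 4 fell, among them Tff3 (log2 fold change -0.88) and Agr2 (-0.58). The called share was 57.1%, against 15.9% of all tested genes, in a list also chosen with earlier results known. The call of Spink4, another of the 4, was lost in 4 of 8 runs without 1 library (edgeR adjusted p up to 0.103). The goblet list summed to 112 to 142 CPM in KO libraries and 156 to 212 CPM in WT libraries. No member was at 0 in every library. Of 4 enteroendocrine markers 2 fell, Gcg and Pyy, or 50% against 15.9% of all tested genes. The list sums of 18.3 to 26.6 CPM in KO libraries and 26.4 to 38.5 CPM in WT libraries touched. Tuft cell markers summed to 0.301 to 0.662 CPM in KO libraries and 0.646 to 0.935 CPM in WT libraries, ranges that overlapped, with Pou2f3 at 0 throughout. The 1 tested tuft marker, Avil, had 0.412 ± 0.138 CPM in KO libraries and 0.779 ± 0.136 CPM in WT libraries (edgeR adjusted p = 0.0441), and that call ended without any library other than KO replicate 6 and WT replicate 14 (edgeR adjusted p up to 0.137). The part of these shifts, and of the Cd68 level and the mitochondrial share given above, in the keratin results was not tested.

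**Figure D4:**
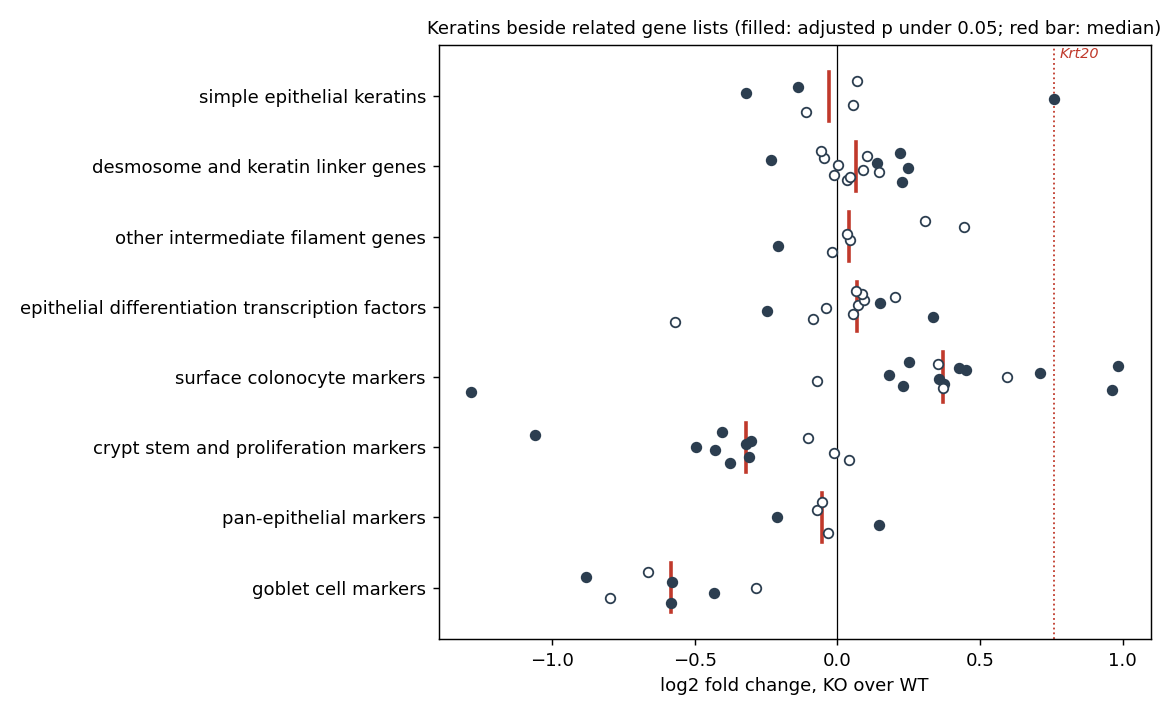
Log2 fold changes, KO over WT, of the tested genes in the keratin list and 7 related lists; each point is 1 gene, filled where the adjusted p is under 0.05, red bars are list medians and the dotted line marks Krt20 at 0.76. Surface colonocyte markers lie mostly to the right (median 0.37), crypt and goblet cell markers to the left (medians -0.32 and -0.58), and 5 of the 6 keratins lie within 0.32 of 0.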

How the data were processed

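RNA sequencing of 4 KO and 4 WT organoid libraries was analysed from the deposited table of 45777 genes. Stranded mRNA libraries were made from RNA with an integrity number above 7.0, per the labels' protocols. The counts as deposited are whole numbers for each gene and were not normalized. The authors' TPM values, scaled for length and depth, were used to compare levels between genes, and the authors' FPKM values were not used. The submitters' processing notes name HTSeq, Bowtie2, TopHat, TopHat2 and the build GRCm38. Their versions and roles, and whether counting used strand, were not given in the sources used here. Genes that overlap, antisense ones included, are therefore uncertain. In each library more genes had 2 counts (673 to 772) than 1 (548 to 622), so both mates of a pair may have been counted.

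Low counts were removed with filterByExpr, libraries were scaled by TMM, and the quasi-likelihood test of edgeR 4.0.16 (R 4.3.3) was applied, with Benjamini-Hochberg adjustment over all 14945 tested genes and a threshold of 0.05. SE is the size of the log2 fold change divided by the square root of F. Ratios of Krt20 to each other keratin had 0.5 added to each count and were compared with two-sided exact permutation tests. On simulated counts, for KO over WT with 14796 genes run, edgeR called 60% of genes changed 1.25-fold, 76% at 1.5-fold and 94% at 2-fold, and 0.122% of unchanged ones. In this simulation 50 genes were changed at each fold and 14745 were not, with the spread estimated from these libraries. In the data 15.9% of genes were called, so these rates need not hold for the real comparison. Profiles used log2 CPM with a prior count of 2. Over genes averaging 20 counts or more, the chi-square divided by its degrees of freedom was 4.94 to 10.7 between KO libraries, 11.1 to 24.9 between WT libraries and 25.9 to 41.2 across genotypes. No pair of libraries therefore matched within counting error. Wells or preparations of the same mouse could also differ by this much, so technical replicates cannot be told from separate mice here. The labels give no batch.

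The keratins and the gene lists were chosen with earlier results of these data known. The text names all 6 keratins, the tested members of the keratin family, at most 4 called members of each list, by smallest adjusted p (with none called, the 2 most abundant), and the 5 genes nearest to Krt20. Others are named as marker checks: Epcam, Vim, Trp63 and markers at 0. Alternatives were other scalings, the DESeq2 1.42.0 Wald test, limma-voom (limma 3.58.1), no low-count filter, a stricter one, a threshold of 0.01, 5 added to each count, TPM ratios and leaving out each library. Adding Krt8-ps counts to Krt8 was chosen after seeing the data. Tables and plots used Python 3.11.15, pandas 2.3.3, numpy 2.4.6, scipy 1.17.1 and matplotlib 3.10.9.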

Additional observations from a re-analysis of the deposited data

Results flagged for a closer look

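Of 126 groups of 4 libraries examined for a library far from the other 3 (the 6 keratins, the other named genes and the 5 ratios, in each genotype), 8 were picked out, and chance picks out about 1 in 20. None concerned the 6 simple epithelial keratins or the Krt20 ratios.

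In KO, replicate 6 was high for Cldn3 (360 CPM, against 326 to 330 CPM in the other 3) and Lmnb1 (69.6 CPM, against 65.4 to 65.9 CPM) and low for Krt15 (1.22 CPM, against 2.58 to 2.85 CPM). KO replicate 5 was low for Krt27 (0.568 CPM, against 1.07 to 1.12 CPM). In WT, replicate 13 was high for Krt4 (97.4 CPM, against 92.4 to 92.6 CPM) and Krt78 (1.44 CPM, against 1.19 to 1.21 CPM). WT replicate 15 was high for Krt6a (0.383 CPM, against 0.216 to 0.222 CPM) and low for Hes1 (83.8 CPM, against 88.5 to 89.2 CPM).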

How the results depend on the processing

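Krt20 remained higher, and Krt8, Krt18 and Krt19 remained short of the threshold, under every alternative run. The log2 fold change of Krt20 lay between 0.72 and 0.80. Krt7 was no longer called with upper-quartile scaling (-0.14), with no low-count filter (-0.13) or at a threshold of 0.01 (-0.14), and lay between -0.17 and -0.12 without single libraries. Krt23 was not called at a threshold of 0.01 (-0.32) and lay between -0.36 and -0.26 without single libraries. The cause was not tested. Without single libraries the Krt20 ratio differences ran from 0.65 to 0.72 (Krt8), 0.80 to 0.92 (Krt18), 0.65 to 0.75 (Krt19), 0.86 to 0.96 (Krt7) and 1.03 to 1.17 (Krt23), each with p = 0.0571 in an exact permutation test, the smallest possible with 3 against 4 libraries. Counts of genes called ran from 696 to 1386 higher and from 724 to 1404 lower without single libraries. They moved by over 1.5 times without KO replicate 5 (757 higher), KO replicate 8 (696 higher, 724 lower) and WT replicate 13 (808 lower), and to 562 higher and 597 lower at a threshold of 0.01. Some keratins that were not called changed sign when 1 library was left out, over ranges of -0.034 to 0.17 (Krt1), -0.055 to 0.27 (Krt39), -0.65 to 0.048 (Krt5), -0.071 to 0.052 (Krt78), -0.29 to 0.061 (Krt83) and -0.063 to 0.13 (Krt90). No paired analysis was possible because the genotypes share no replicate numbers.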
